A study of Mus musculus with 8 samples.

Results

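The 10 genes described here encode the main connexins, desmosome proteins and adherens junction partners that join cells of the heart. They are Gja1, Gja4, Gja5 and Gjc1 (connexins), Dsg2 and Dsc2 (desmosomal cadherins), Dsp, Pkp2 and Jup (desmosomal plaque proteins) and Ctnna3 (alpha-T-catenin). They were taken by symbol from the 32285 genes of each count matrix, whatever their values, and all 10 had a row. The libraries were single-nucleus RNA libraries of adult mouse heart made with 10x Genomics droplets. The labels name 8 libraries, 2 for each combination of sex (Female, male) and genotype (WT- non Tg, here nTg, or Tg-ccna2, here Tg, which carries a constitutive cyclin A2 transgene). Neither the promoter of the transgene, the strain nor the exact age is given in the sources used here. Nothing in the labels says whether the 2 libraries of a group came from separate animals, so p-values measure the spread between libraries, which may be technical.

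For 3 of the 4 nTg labels (the second female and both males), the deposited matrix repeated that of the Tg library of the same sex and number, and its column count differed from its own barcode list. These 3 were left out. The 5 retained libraries held 25045167 to 38593706 unique molecular identifiers (UMIs, each a counted RNA molecule) and gave 34224 nuclei with medians of 2079 to 3053 UMIs. Pairs of libraries shared 6 to 20 barcodes. Ccna2, the gene of the transgene, went against 2 labels. In cardiomyocyte-like nuclei it stood at 448 CPM (UMIs per 1000000 summed) in the library labelled nTg Female 1 and at 0.53 CPM in the library labelled Tg Female 1, against 144 to 846 CPM in the other 3. Every name below is therefore a library's label, and genotype was not tested. Nuclei were grouped by markers with the 10 genes left out of the clustering. The overlapping genes 4930573H18Rik (at Gja5) and Lrrtm3 (at Ctnna3) were not excluded from it. Because groups are clusters, levels across them are a description without a test.

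Gap junctions are channels of connexins through which ions and small molecules pass between neighbouring cells, and in the heart they carry the action potential from one cardiomyocyte to the next. Desmosomes anchor intermediate filaments of adjoining cells through cadherins and plaque proteins, and in cardiomyocytes they merge with adherens junctions at the intercalated disc. Mutations of desmosomal genes cause arrhythmogenic cardiomyopathy.

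Of the 10 genes, 6 had a promoter in the RefSeq table (build GRCm38.p6); Gjc1, Pkp2, Dsg2 and Dsc2 had no entry. The 250 bases upstream of the start are shown for Gja1, Gja4 and Gja5, because these connexins were unevenly spread over the vessel-lining nuclei. Capitals mark matches, on either strand, to 6 motifs that do not contain one another. The AP-1 motif was searched as TGANTCA, the T-box motif as AGGTGT and the SOX motif as ACAAAG. The GATA motif was searched as AGATAA, the TATA box as TATAAA, and the MEF2 motif was the sixth.
Gja1 (chr10:56377050-56377299, + strand): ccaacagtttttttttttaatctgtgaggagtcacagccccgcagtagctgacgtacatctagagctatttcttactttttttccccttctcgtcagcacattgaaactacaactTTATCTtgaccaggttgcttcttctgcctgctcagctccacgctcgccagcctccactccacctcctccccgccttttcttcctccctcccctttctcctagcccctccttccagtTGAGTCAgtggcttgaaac
Gja4 (chr4:127314040-127314289, - strand): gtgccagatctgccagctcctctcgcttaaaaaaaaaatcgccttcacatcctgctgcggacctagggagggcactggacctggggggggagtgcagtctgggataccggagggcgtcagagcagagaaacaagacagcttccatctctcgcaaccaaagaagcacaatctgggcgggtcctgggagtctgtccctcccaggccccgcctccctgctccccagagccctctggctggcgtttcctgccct
Gja5 (chr3:97032152-97032401, + strand): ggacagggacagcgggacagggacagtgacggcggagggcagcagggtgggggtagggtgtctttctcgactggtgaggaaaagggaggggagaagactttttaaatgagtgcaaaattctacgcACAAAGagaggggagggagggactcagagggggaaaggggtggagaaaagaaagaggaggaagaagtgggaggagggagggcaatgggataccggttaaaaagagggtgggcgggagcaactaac

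The Gja1 window held an AP-1 match that began 19 bases before the start and a GATA match 135 bases before it. Gja5 held a SOX match 125 bases before its start, and Gja4 held none of the 6 motifs. The start used for Gja5 is that of the RefSeq table, which lies inside the wider gene range given below. In the same window, 6.75% of all 32851 promoters in the table held the AP-1 letters, 9.99% the GATA letters and 16.5% the SOX letters. Such matches describe the letters only.

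Gja1 encodes connexin 43, the main connexin of working ventricular muscle. It lies at chr10:56377330-56402513 (+ strand; GRCm38, GENCODE M21). Its level in cardiomyocyte-like nuclei was 451 CPM in the nTg library, 760 and 408 CPM in the Tg females (1, then 2) and 390 and 443 CPM in the Tg males (490 ± 153, SD, n = 5 libraries). Lists of 5 values below keep this order. Tg Female 1 lay 1.68 times above the next library, and the other 4 lay close together. The same library was highest for 7 of the 8 genes with a mean of at least 10 CPM in these nuclei. For Dsp, Dsg2, Dsc2, Pkp2 and Ctnna3 it stood only 1.01 to 1.17 times above the next. The share of all genes that were highest in this library was not computed, so the count is no result about these genes. Tg Female 1 is also the library nearly without Ccna2. The part of Ccna2 in these levels was not tested.

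Outside muscle, Gja1 was highest in vessel-lining and outer-surface nuclei. It averaged 280 ± 175 CPM in mesothelial-like nuclei (104 nuclei), 222 ± 48.0 in lymphatic endothelial-like and 178 ± 16.6 in endothelial-like nuclei (SD, n = 5). The libraries of neighbouring groups in this order overlapped. Free RNA from lysed cardiomyocytes can give UMIs in any droplet, so each level was set beside the level that the cardiomyocyte genes Ttn, Ryr2, Myh6, Tnnt2 and Trdn would carry along. Gja1 stood 14.7 times above that level in endothelial-like, 27.6 times in lymphatic endothelial-like and 30.3 times in mesothelial-like nuclei. In endocardial-like and fibroblast-like nuclei, at 33.6 and 29.4 CPM on average, Gja1 stood at 4.28 and 3.73 times that level. Both types were above it in 5 of 5 libraries. In pericyte-like and smooth muscle-like nuclei Gja1 stood at 1.13 and 1.11 times that level. This level can overstate carried-over RNA: in endothelial-like nuclei Ctnna3 stood at 0.20 and Pkp2 at 0.40 times it. Ratios near 1 therefore do not tell carried-over RNA from RNA of the nucleus itself.

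Gja5 encodes connexin 40, which couples arterial endothelium, atrial muscle and the fast conduction fibres. It spans chr3:96904693-97077416 (+ strand). In endothelial-like nuclei it stood at 89.99, 89.8, 98.7, 74.2 and 98.2 CPM (90.2 ± 9.90, SD, n = 5). Cardiomyocyte-like nuclei held 1.85 ± 0.81 CPM, and apart from conduction-like nuclei the other named types had means over libraries under 5 CPM, from 0 to 17 UMIs each. Its range overlaps 4 genes on the other strand, among them the antisense transcript 4930573H18Rik, whose pattern over 19 types and sub-clusters was most like it (Pearson r = 0.99). Whether counting used strand is not given in the sources used here, so reads of this pair may not be told apart.

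Gja4 encodes connexin 37, a vascular connexin (chr4:127311421-127314039, - strand). It was highest in pericyte-like nuclei, at 155, 141, 90.3, 128 and 129 CPM (129 ± 24.01, SD, n = 5), followed by smooth muscle-like nuclei at 83.8 ± 24.2 CPM. Lymphatic endothelial-like nuclei held 51.2 ± 20.3 CPM, endocardial-like nuclei 31.8 ± 8.39 CPM and cardiomyocyte-like nuclei 0.52 ± 0.33 CPM. The library ranges of pericyte-like and smooth muscle-like nuclei overlapped, those of pericyte-like and lymphatic endothelial-like nuclei did not.

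Gjc1 encodes connexin 45, the connexin of nodal and early cardiac muscle (chr11:102799579-102819700, - strand). Mural nuclei held the most, with 371, 332, 246, 361 and 381 CPM in pericyte-like nuclei (338 ± 54.6) and 281 ± 68.2 CPM in smooth muscle-like nuclei (SD, n = 5). Conduction-like nuclei and endothelial-like nuclei (70.5 ± 11.004 CPM) followed, and cardiomyocyte-like nuclei held 32.3 ± 8.73 CPM. The pericyte and smooth muscle ranges overlapped with each other and with no other named type.

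**Figure D1:**
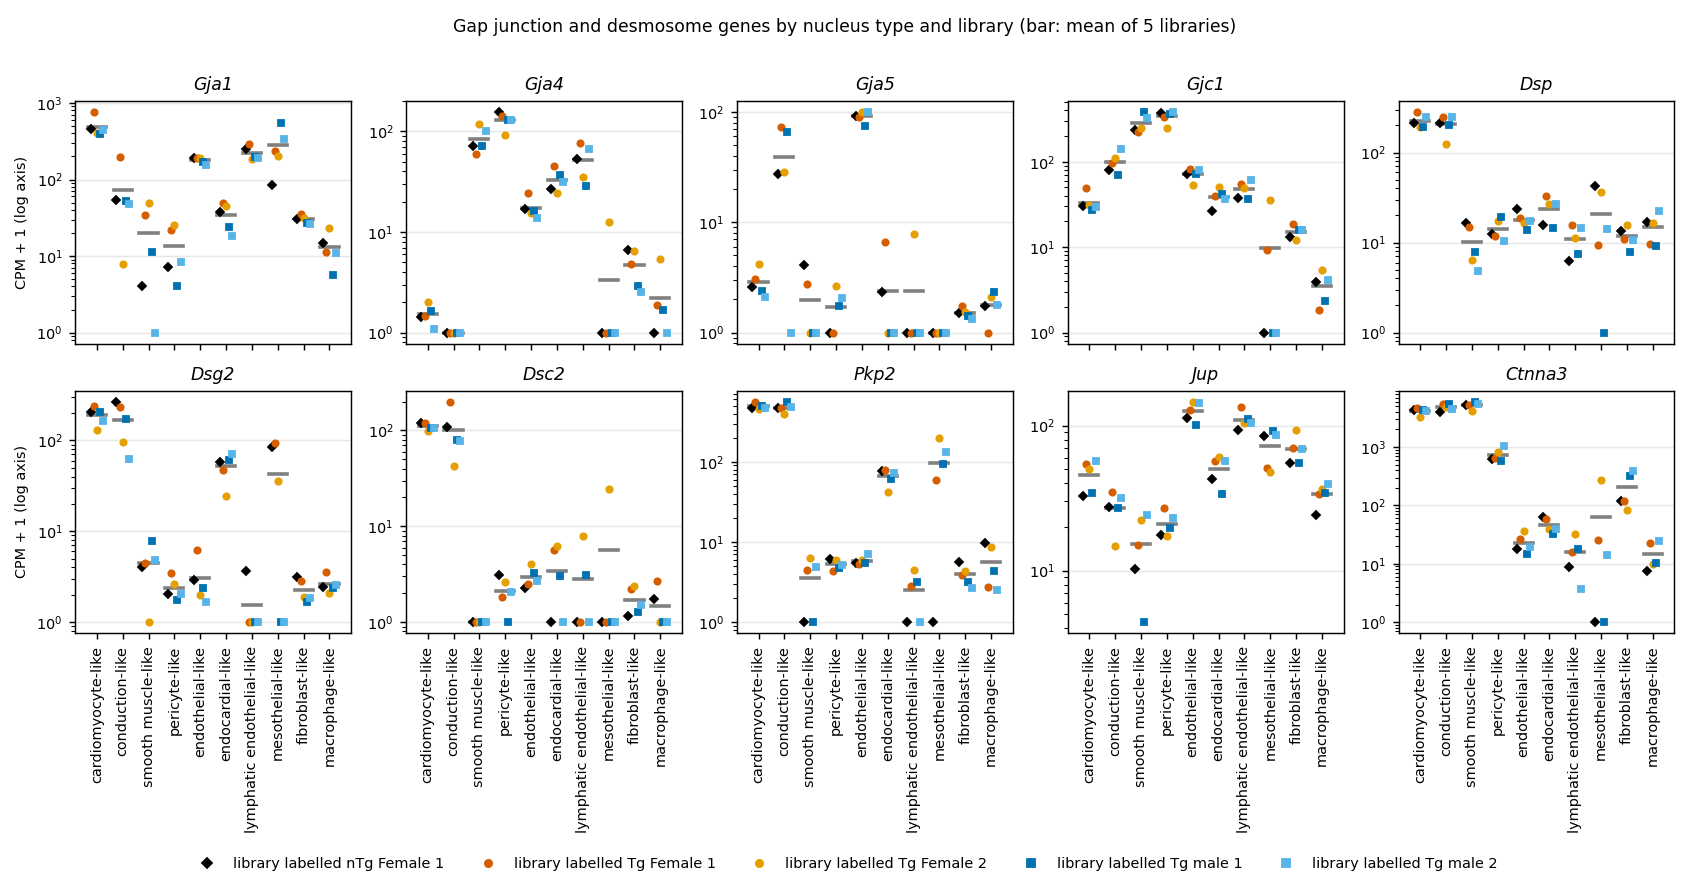
Level of each of the 10 genes (CPM + 1, log axis) in 10 marker-defined nucleus types; points are the 5 libraries, coloured by label, and the grey bar is their mean. Gja4 and Gjc1 peak in pericyte-like and smooth muscle-like nuclei, Gja5 in endothelial-like nuclei, and Dsp, Dsg2, Dsc2 and Pkp2 in cardiomyocyte-like and conduction-like nuclei.

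Within the 7025 endothelial-like nuclei, the 4 connexins separated the sub-clusters. An arterial-like sub-cluster led by Dkk2, Gkn3 and Cytl1 (613 nuclei) held Gja5 at 545, 427, 475, 460 and 439 CPM (469 ± 46.5). A second arterial-like sub-cluster, led by Slc45a4 and Prom1 and with Hey1 among its leading genes (1450 nuclei), held 181, 218, 233, 177 and 239 CPM (210 ± 29.2; SD, n = 5 for both). These ranges did not overlap, and the Car4-led (2152 nuclei), Kit-led (630), venous-like (1964) and interferon gene-led (159) sub-clusters averaged 1.22 to 5.31 CPM. Gja4 ran the same way, at 72.4 ± 32.4 and 40.4 ± 19.9 CPM in the arterial-like pair, with overlapping ranges, and at most 2.35 CPM on average in those 4 others.

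Gja1 split that arterial-like pair in the opposite direction. It stood at 43.1, 44.2, 33.2, 21.0 and 24.2 CPM in the Dkk2-led sub-cluster (33.1 ± 10.6) and at 316, 316, 268, 274 and 265 CPM in the Slc45a4-led one (288 ± 26.1). The ranges did not overlap: the sub-cluster richest in Gja5 was poor in Gja1, and the second held both. The Car4-led sub-cluster held 269 ± 31.4 CPM of Gja1 and the venous-like one 45.4 ± 8.97 CPM. Gjc1 was highest in the venous-like (105 ± 13.3 CPM) and interferon gene-led sub-clusters (105 ± 43.1 CPM), and in the venous-like nuclei it exceeded all other endothelial-like nuclei of the same library in 5 of 5 libraries, by 1.68 to 2.01 times. Jup, which also serves endothelial adherens junctions, was lowest in the Dkk2-led sub-cluster (53.4 CPM on average, 31.6 to 80.7 over libraries) and highest on average in the Car4-led one (165 ± 28.3 CPM). A sub-cluster of 57 nuclei led by stromal genes was mixed and is not described.

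**Figure D2:**
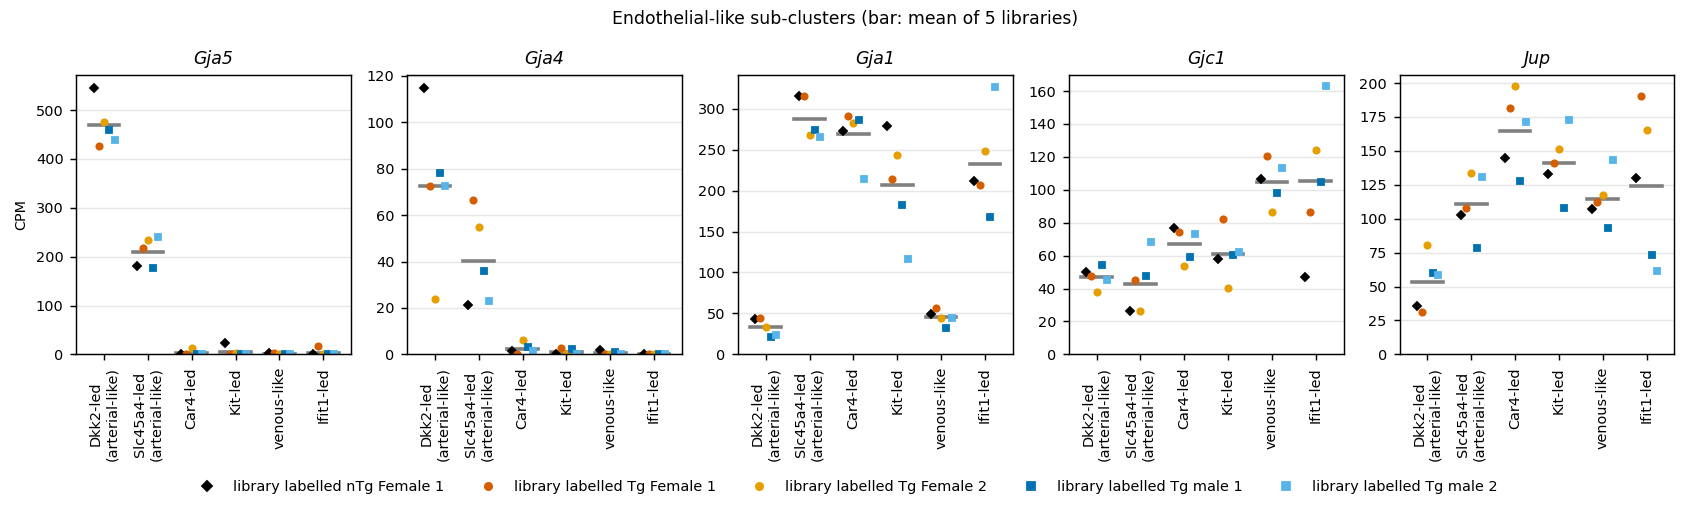
Levels (CPM, linear axes from 0) of Gja5, Gja4, Gja1, Gjc1 and Jup in 6 endothelial-like sub-clusters; points are the 5 libraries and the grey bar is their mean. Gja5 falls from 469 to 210 CPM between the arterial-like sub-clusters while Gja1 runs from 33.1 to 288 CPM.

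Conduction-like nuclei had another connexin profile than the rest of the muscle. This cluster of 125 nuclei, 7 to 40 per library, was led by Cntn2, Fgf12 and Cpne5. It had 4 of 6 conduction markers raised at least 2-fold (Hcn4, Cntn2, Cpne5, Cacna2d2) and 4 of 5 atrial markers (Myl7, Myl4, Sln, Nppa), with the atrial marker Bmp10 at 0, so it was called conduction-like with atrial genes present. Gja1 was at 53.2, 198, 6.87, 51.8 and 46.3 CPM, from 61 UMIs in all, and lay below the cardiomyocyte-like level of the same library in 5 of 5 libraries (0.017 to 0.26 times it). Gja5 was at 26.6, 72.5, 27.5, 64.7 and 0 CPM from 36 UMIs, above the cardiomyocyte-like level in 4 of 5 libraries; the library at 0, Tg male 2, had 7 such nuclei. Gjc1 was at 79.7, 96.7, 110.0, 69.1 and 139 CPM from 67 UMIs, and stood 2.03 to 4.86 times above cardiomyocyte-like nuclei in 5 of 5 libraries.

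The desmosomal genes did not follow the connexins there. Pkp2 was at 465, 464, 392, 561 and 478 CPM in conduction-like nuclei, a median of 1.00 times the cardiomyocyte-like level of the same library (0.84 to 1.12). The median ratios were 1.00 for Dsp, 0.85 for Dsg2, 0.74 for Dsc2 and 1.16 for Ctnna3, with libraries on both sides of 1 for each. Jup was lower in 5 of 5 libraries, at 0.28 to 0.84 times, from 19 UMIs. After each nucleus was thinned to 1000 UMIs, 4.92% of conduction-like nuclei held a Gja1 UMI (exact binomial 95% interval 1.83 to 10.4%, counting error only) against 37.9% of cardiomyocyte-like nuclei; without thinning the means over libraries were 22.3% and 84.2%, at median depths of 4797 and 7014 UMIs. Fibroblast-like nuclei, which hold little Gja1, gave 2.77% thinned.

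**Figure D3:**
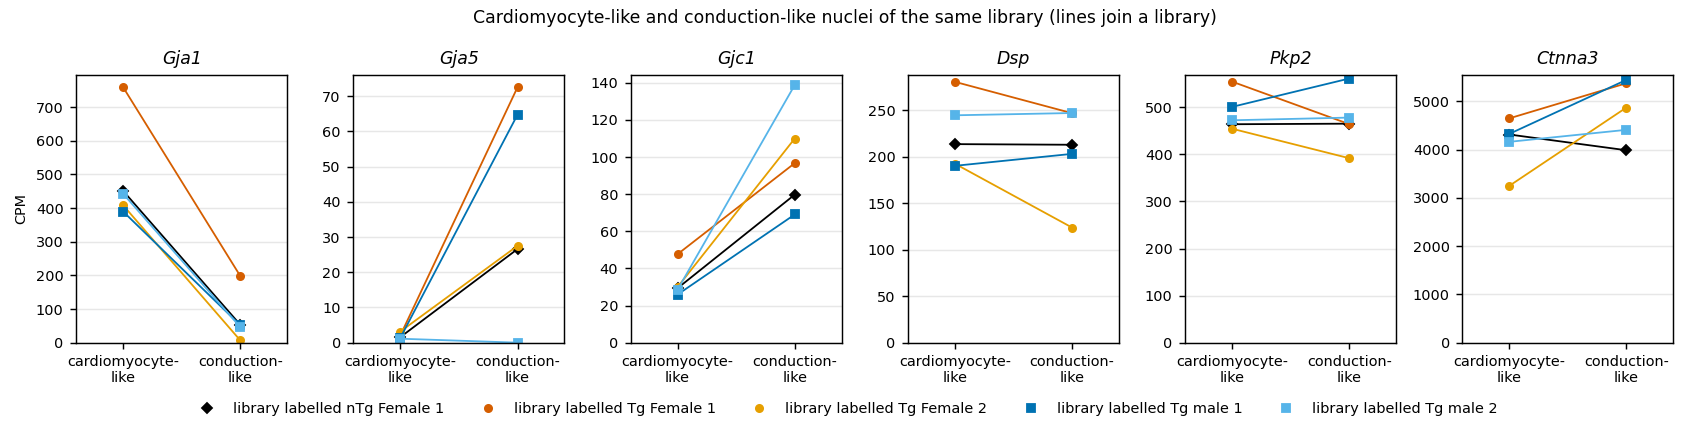
CPM of 6 genes in cardiomyocyte-like and conduction-like nuclei, with a line for each of the 5 libraries and axes that start at 0. Gja1 is lower and Gjc1 higher in conduction-like nuclei of every library, Gja5 is higher in 4 of 5, and Dsp, Pkp2 and Ctnna3 have lines in both directions or nearly flat.

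Of the desmosomal genes, 4 were highest in cardiomyocyte-like nuclei. Desmoplakin (Dsp, chr13:38151294-38198577, + strand), which ties the plaque to desmin filaments, stood at 213, 280, 192, 190 and 244 CPM (224 ± 38.2, SD, n = 5). Plakophilin 2 (Pkp2, chr16:16213318-16272712, + strand), an armadillo protein of the plaque, stood at 464, 554, 454, 501 and 472 CPM (489 ± 40.4). The cadherins Dsg2 (chr18:20558074-20604521, + strand) and Dsc2 (chr18:20030633-20059554, - strand) averaged 187 ± 42.1 and 109 ± 9.69 CPM. For all 4, the ranges of cardiomyocyte-like and conduction-like nuclei overlapped.

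Dsg2 and Pkp2 were also found in 2 lining types that held few Dsc2 UMIs. In endocardial-like nuclei Dsg2 stood at 56.5, 46.8, 23.2, 59.7 and 70.6 CPM, 17.9 times the level carried with cardiomyocyte RNA, and Pkp2 at 75.3, 77.7, 41.3, 60.7 and 70.6 CPM, 8.94 times. Both were above that level in 5 of 5 libraries, whereas Dsc2 stood at 1.37 times it, from 9 UMIs. Dsp was above it there too, at 22.3 CPM on average and 6.37 times (86 UMIs, 5 of 5 libraries). In endothelial-, macrophage-, fibroblast-, pericyte- and lymphatic endothelial-like nuclei Dsp stood at 3.11, 3.48, 2.96, 2.96 and 2.78 times, each in 5 of 5. In Schwann-like and B-like nuclei it stood at 0.47 and 0.85 times. Mesothelial-like nuclei held 42.2 ± 44.2 CPM of Dsg2 (16 UMIs) and 96.0 ± 75.0 CPM of Pkp2 (45 UMIs), 13.5 and 13.3 times the carried level, with 2 libraries at 0 for Dsg2 and 1 for Pkp2, and Dsc2 had 2 UMIs there. B-like nuclei also averaged 96.0 CPM of Pkp2, but at 1.84 times the carried level. In endothelial-like nuclei Dsg2 and Pkp2 were at 0.46 and 0.40 times it. Across 19 types and sub-clusters, Pkp2 was the gene with the pattern most like Dsg2 among 15895 genes, and Dsg2 the one most like Pkp2 (r = 0.96 on log2(CPM + 1)); these points share libraries and depth, and the value is a description.

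Jup encodes plakoglobin, which serves both desmosomes and adherens junctions (chr11:100368958-100397763, - strand). It had another distribution, with endothelial-like nuclei first at 112, 126, 145, 99.7 and 143 CPM (125 ± 19.6). Lymphatic endothelial-like nuclei held 109 ± 15.4 CPM, mesothelial-like nuclei 71.5 ± 21.3, fibroblast-like nuclei 67.7 ± 15.5 and cardiomyocyte-like nuclei 44.6 ± 11.4 CPM (SD, n = 5). The ranges of the endothelial and lymphatic endothelial types overlapped. Its correlations with Dsg2, Dsc2 and Pkp2 over the 19 types and sub-clusters were -0.14, -0.16 and -0.12, and that with Gja1 was 0.72.

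Ctnna3 links cadherins to actin in heart muscle and is a long gene (chr10:63430098-65003667, + strand) with Lrrtm3 nested inside it on the other strand. It was highest in smooth muscle-like nuclei, at 5215, 5207, 4106, 5969 and 5422 CPM (5184 ± 677), then in conduction-like (4819 ± 626) and cardiomyocyte-like nuclei (4140 ± 528; SD, n = 5), with overlapping ranges. Smooth muscle-like nuclei stood 38.1 times above the level carried with cardiomyocyte RNA. Pericyte-like nuclei held 735 ± 185 CPM, 8.55 times that level, fibroblast-like nuclei 3.10 times it, and endothelial-like nuclei 21.8 ± 8.65 CPM, 0.20 times. Schwann-like nuclei, at 740 ± 554 CPM, stood at 1.16 times. Lrrtm3 was the gene most like Ctnna3 (r = 0.98), and as strand use in counting is not given in the sources used here, their reads may not be told apart.

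The cardiomyocyte-like states were compared with all other cardiomyocyte-like nuclei of the same library. Given are members with a mean of at least 10 CPM that lay on the same side in every library. The share of all genes that met this rule was not computed, so the number of members that did is no result about them. In 408 nuclei led by Nppa and Unc13c, Dsg2 was at 132 ± 32.6 CPM and lay lower in 5 of 5 libraries (0.59 to 0.77 times). Dsc2 (0.66 to 0.83 times) and Gja1 (0.83 to 0.88 times) were lower there too, while Pkp2 was higher (1.18 to 1.38 times), each in 5 of 5. In 1176 nuclei led by Slit2, Rp1 and Epha6, Dsg2 (1.17 to 1.34 times) and Ctnna3 (1.13 to 1.38 times) were higher in 5 of 5. In the shallower state led by Lum and Crip1 (1731 nuclei, median 5040 UMIs against 8674 in the largest state), 4 members were lower in 5 of 5: Ctnna3 (0.79 to 0.87 times), Pkp2 (0.85 to 0.89 times), Dsp (0.89 to 0.95 times) and Dsg2 (0.82 to 0.995 times). The part of depth in this was not tested. A state of 209 nuclei led by endothelial genes such as Flt1 held more Dsp (1.10 to 1.65 times) and less Dsg2 (0.57 to 0.88 times), Pkp2 (0.80 to 0.92 times) and Ctnna3 (0.75 to 0.95 times) in 5 of 5. Whether this state held droplets that mix muscle and endothelial RNA was not tested. In the largest state (2481 nuclei), Pkp2 was higher (1.02 to 1.11 times) and Gjc1 lower (0.65 to 0.95 times) in 5 of 5.

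A state with Ccna2 among its 10 leading genes (208 nuclei) was missing from the library labelled Tg Female 1, and its Ctnna3 was 0.94 to 0.99 times the other nuclei in 4 of 4 libraries. To ask whether the junction genes changed with the level of Ccna2 RNA, nuclei with at least 10 Ccna2 UMIs were compared with Ccna2-free ones within 4 libraries. There were 36 to 114 high nuclei and 770 to 1182 free ones per library, with median depths of 6826.5 to 8753 and 5804.5 to 7986.5 UMIs. Tg Female 1 had 0 high nuclei. RNA of the transgene and of the endogenous gene cannot be told apart here, and 1 of the 4 libraries is labelled nTg. Gja1 stood at 456, 405, 405 and 418 CPM in high nuclei of the other 4 libraries, and at 450.1, 412, 389 and 444 CPM in Ccna2-free nuclei. High nuclei were above in 2 libraries and below in the other 2. The log2 difference was 0.01 (SE 0.06, 95% interval -0.11 to 0.13).

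Of the 8 genes tested in this comparison, 0 passed (edgeR quasi-likelihood test with library as a block, Benjamini-Hochberg adjusted p under 0.05), where 0.196% of 11734 genes did. The count was also 0 at an unadjusted p under 0.05 and with DESeq2. For Dsg2 the estimate was 0.13 (95% interval -0.03 to 0.30), for Gjc1 0.27 (-0.10 to 0.63) and for Jup -0.20 (-0.53 to 0.14). Leaving out 1 library moved Gjc1 between 0.05 (without nTg Female 1) and 0.44 (without Tg Female 2), and Jup between -0.35 (without Tg male 2) and -0.016 (without Tg Female 2). The median over the 8 was 0.00 against 0.00 over all genes tested. Gja4 and Gja5 had too few UMIs.

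The labels allow 1 comparison with replicates, female against male among the Tg libraries (2 against 2), made in 4 nucleus types. It is a comparison of labels: Tg Female 1 held almost no Ccna2 and Tg Female 2 the most. In cardiomyocyte-like nuclei 0 of 9 genes passed (0.0266% of 15017 genes did), with 0 at an unadjusted p under 0.05 and 0 with DESeq2. For Gja1 the log2 difference was 0.46 (SE 0.31, 95% interval -0.28 to 1.20), and without Tg Female 1 it was -0.10. For Gjc1 it was 0.49 (-0.11 to 1.09) and for Pkp2 0.02 (-0.45 to 0.49). In endothelial-like nuclei 0 of 8 passed (0.17% of 12918 genes did), with 1 (Ctnna3, at 0.85, adjusted p = 0.345 by edgeR) at an unadjusted p under 0.05 and 0 with DESeq2.

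Ctnna3 was lower in female than in male fibroblast-like nuclei. It stood at 117 and 83.1 CPM in Tg Female 1 and Tg Female 2, and at 317 and 386 CPM in Tg male 1 and Tg male 2. Both females lay below both males, and the library labelled nTg Female 1, which the test did not use, lay with the females at 116 CPM. The log2 difference was -1.90 (SE 0.22, 95% interval -2.41 to -1.39, edgeR adjusted p = 0.0188). It was the 1 gene of 7 tested that passed, where 0.507% of 15196 genes did, and DESeq2 also called 1 of the 7. At an unadjusted p under 0.05 there were 2, the other being Gja4. The median of the 7 was 0.31 against 0.02 over all genes tested. The share of fibroblast-like nuclei with a Ctnna3 UMI was 12.9% and 7.72% in the Tg females and 22.6% and 23.9% in the Tg males.

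Other values moved with this or did not. The nested Lrrtm3 moved with it, at 64.1 and 43.0 CPM in the Tg females, 138 and 164 in the Tg males and 67.2 in nTg Female 1. Markers of types rich in Ctnna3 did not: the 7 smooth muscle markers summed to 31.0 and 40.9 CPM in the female and 25.4 and 21.9 CPM in the male fibroblast-like nuclei, the 8 cardiomyocyte markers to 1117 and 1444 against 1003 and 1078 CPM, and the 8 pericyte markers to 262 and 242 against 212 and 201 CPM, with none at 0 in all libraries. Of these 3 lists 0 markers were higher in both males, and 4 of 7, 4 of 8 and 5 of 8 were higher in both females. The mix of fibroblast clusters also differed. The Duoxa1-led cluster held 1299 and 1541 nuclei in the Tg females and 607 and 509 in the Tg males. The Inmt-led one held 554 and 188 against 916 and 1022. The parts of RNA from other types and of this mix in the Ctnna3 difference of the whole class were not tested.

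Within clusters the difference was as follows. In the Kcnip1-led cluster Ctnna3 was at 154 and 134 CPM in the Tg females against 385 and 483 in the Tg males (log2 difference -1.65, SE 0.20, adjusted p = 0.00159 by edgeR), with nTg Female 1 at 147. In the Inmt-led cluster it was at 169 and 112 against 416 and 501 CPM (-1.69, SE 0.22, adjusted p = 0.00361 by edgeR), with nTg Female 1 at 159. In the Duoxa1-led cluster, at 59.9 and 47.1 against 73.2 and 64.1 CPM, the estimate was -0.42 (SE 0.22, adjusted p = 0.750 by edgeR) and did not pass. These values lay near the Ctnna3 level carried with cardiomyocyte RNA, 65.2 CPM over all fibroblast-like nuclei. No such level was computed for a single cluster. Over all fibroblast-like nuclei Pkp2, Dsc2 and Dsg2 stood at 0.37, 0.41 and 0.44 times their own such levels, and the other members above theirs. This level can therefore overstate carried-over RNA here. The part of such RNA in the smaller estimate was not tested. Whether the clusters differ from each other was not tested.

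Other types were set beside this. Ctnna3 was at 640 and 814 CPM in female and 581 and 1025 CPM in male pericyte-like nuclei (log2 difference -0.14, 95% interval -0.71 to 0.43). Smooth muscle-like nuclei held 5207 and 4106 against 5969 and 5422 CPM, cardiomyocyte-like nuclei 4648 and 3250 against 4327 and 4162 CPM, and endothelial-like nuclei 25.4 and 35.2 against 13.6 and 18.3 CPM. Smooth muscle-like nuclei were not tested. For the other 3 types, the difference from fibroblast-like nuclei was tested as an interaction with library as a block. It was -1.76 against cardiomyocyte-like nuclei (SE 0.21, adjusted p = 0.0243; 0.101% of 16886 genes passed), -2.72 against endothelial-like nuclei (SE 0.28, adjusted p = 0.000391; 1.37% of 15528) and -1.76 against pericyte-like nuclei (SE 0.20, adjusted p = 3.45e-05; 0.446% of 14792), all by edgeR. Of the other members that could be tested (9, 8 and 6 in that order), 0 passed. Endothelial-like nuclei held 309 Ctnna3 UMIs in all, at 0.20 times the level carried with cardiomyocyte RNA. The part of carried RNA in the endothelial interaction was not tested.

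**Figure D4:**
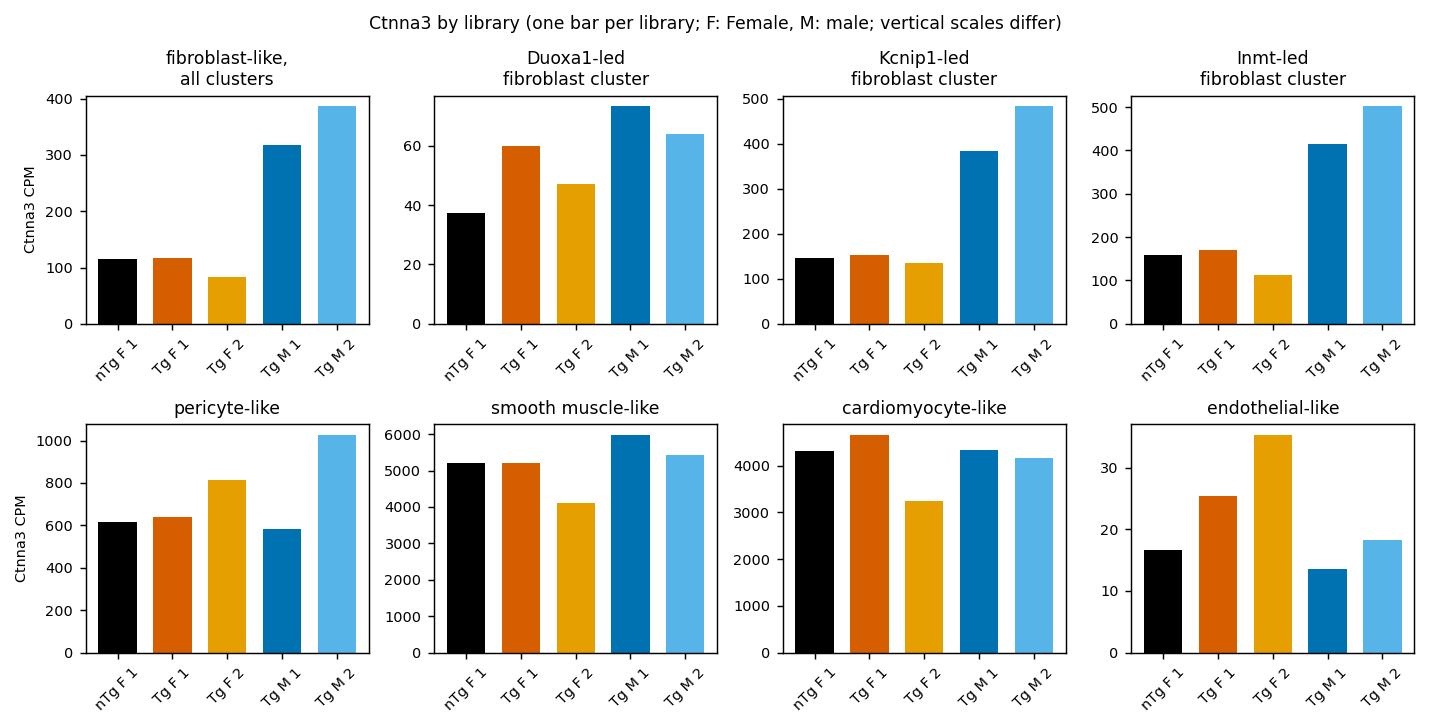
Ctnna3 (CPM) by library, with 1 bar per library, in all fibroblast-like nuclei, in the 3 fibroblast clusters and in 4 other types; bars start at 0 and vertical scales differ. In all fibroblast-like nuclei the male libraries stand at 317 and 386 CPM and the 3 female ones at 83.1 to 117.

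In pericyte-like nuclei 0 of 6 genes passed (0.156% of 10263 genes did), with 1 at an unadjusted p under 0.05 and 0 with DESeq2, which gave that gene no adjusted p. It was Gja1, at 20.9 and 24.6 CPM in the Tg females and 3.01 and 7.36 in the Tg males, from 25, 15, 4 and 7 UMIs, and at 6.24 CPM in nTg Female 1. Its log2 difference was 2.18 (SE 0.51, adjusted p = 0.247 by edgeR). With no count filter the adjusted p was 0.00580. Leaving out Tg Female 1 or Tg Female 2 gave adjusted p = 0.0446 and 0.0490, and without Tg Female 1 that of Gjc1 was 0.0262 (-0.59). These fits leave 1 library in an arm, which is assumed to vary like the 2 of the other arm. The 8 cardiomyocyte markers summed to 1517 and 1817 CPM in these female pericyte-like nuclei and to 1301 and 1365 CPM in the male ones, with 5 of 8 higher in both females. Their part in the Gja1 value was not tested. Without Tg male 1 or Tg male 2 the adjusted p was 0.966 and 0.06001. Gja4 in fibroblast-like nuclei, at 3.86 and 5.40 against 1.93 and 1.52 CPM, gave 1.31 (SE 0.42, adjusted p = 0.300 by edgeR).

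**Figure D5:**
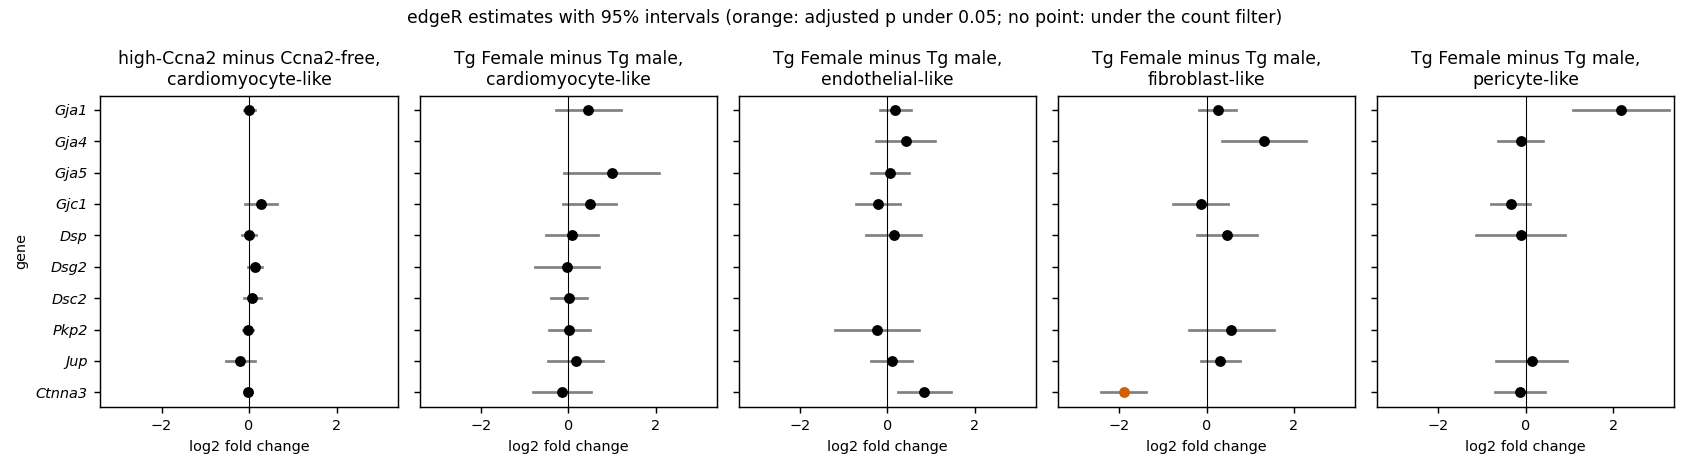
Log2 fold change of each tested gene with its 95% interval, for high-Ccna2 minus Ccna2-free cardiomyocyte-like nuclei and for Tg Female minus Tg male libraries in 4 types; orange marks an adjusted p under 0.05 and genes under the count filter have no point. Ctnna3 in fibroblast-like nuclei (-1.90) is the 1 orange point.

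The single nTg library was set beside the 4 Tg libraries. Genes with a mean of at least 10 CPM were counted where it fell outside the Tg range and past 1.5-fold from the Tg mean, on the CPM + 1 scale. In cardiomyocyte-like nuclei this held for 0 of 8 genes (2.8% of 8636 genes), in endothelial-like for 0 of 7 (3.67% of 9775), in fibroblast-like for 0 of 5 (2.76% of 10276) and in pericyte-like nuclei for 0 of 6 (10.1% of 9756). Jup in cardiomyocyte-like nuclei lay at the edge of this rule: it was at 31.5 CPM in the nTg library and at 33.2 to 55.7 CPM (mean 47.8) in the Tg libraries, and without the added 1 it would be counted. With so few genes per type, counts of 0 are near these shares, and with 1 library there is no test.

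Other connexins and pannexins are described by 3 genes that reached 10 CPM in a named type, chosen after their values were seen. Gja3 (connexin 46) stood at 91.1 CPM in conduction-like and 63.1 CPM in cardiomyocyte-like nuclei and had a pattern close to that of Dsc2 (r = 0.98). Gjc3 reached 129 CPM in Schwann-like nuclei (181 nuclei). Panx1 reached 45.2 CPM in T and NK-like (126 nuclei) and 36.2 CPM in B-like nuclei (72 nuclei), both small groups. Of 13 other desmosome and plakin genes 5 reached 10 CPM, with 1 highest in cardiomyocyte-like nuclei. All 24 other intercalated disc genes did, with 5 highest in cardiomyocyte-like and 7 in conduction-like nuclei.

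Among these lists, 1 gene passed a sex test: Ppl (periplakin, a plakin of desmosomes and the cell cortex), lower in female fibroblast-like nuclei. It stood at 68.0 and 50.7 CPM in the Tg females, 132 and 145 in the Tg males and 105 in nTg Female 1 (log2 difference -1.30, SE 0.19, adjusted p = 0.0348 by edgeR). It was 1 of 4 tested of its list there, against 0 of 2 connexins and pannexins and 0 of 23 intercalated disc genes. The mix of fibroblast clusters differed between these libraries, as given above, and its part in the Ppl difference was not tested. In the comparison by Ccna2, 0 of 1, 0 of 5 and 0 of 24 tested genes of the 3 lists passed.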

How the data were processed

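The deposited matrices hold UMI counts per gene and nucleus as whole numbers, made with Cell Ranger 7.0.0 per the file headers and on mm10 per the submitters' processing notes; the counting of introns and strand is not given in the sources used here. Each library was sampled once, and its depth is given with the results. A barcode was kept when it had at least 200 genes and mitochondrial genes made up under 5% of its UMIs. Doublets were called with the scrublet method of scanpy 1.11.5 (expected rate 6%) and removed (7.63 to 11.4%); its own threshold failed in Tg Female 2 (0% called), where the mean threshold of the other libraries (0.147) was used, a choice made after seeing the data. Nuclei were clustered with leidenalg 0.10.2 on 2000 genes, 30 components centred within library, 15 neighbours, resolution 1 (sub-clusters 0.5), without the 10 genes, the other junction genes, Ccna2 and sex-linked genes. Clusters were named from marker lists (at least 3 raised 2-fold), and groups under 50 nuclei were left out.

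Counts were summed per library and type. CPM are UMIs per 1000000 summed UMIs. Tests were edgeR 4.0.16 quasi-likelihood fits over all genes passing filterByExpr, with TMM factors and Benjamini-Hochberg adjustment, tested on simulated data. In fibroblast-like sums (15196 genes) 83.3% of 4-fold and 42.9% of 2-fold changes were recovered, in cardiomyocyte-like sums (15017) 84.3 and 32.9%, in endothelial-like sums (12918) 82.2 and 29.1%, in pericyte-like sums (10263) 81.4 and 33.7% and in the Ccna2 comparison (11734) 93.1 and 72.4%. False calls made up 14.4% of calls in cardiomyocyte-like sums and 2.35 to 9.38% in the others. DESeq2 1.42.0, RLE factors, no count filter, a genotype covariate, a replicate block, another Ccna2 threshold, depth matching and leaving out each library were alternatives. The members and lists were chosen with earlier results of these data known; all 10 members are named, other list genes only when past the threshold (or when 5 or fewer are counted), and for likeness the genes with the highest Pearson r. The interaction tests and the tests within fibroblast clusters were added after results had been seen. The ratio to cardiomyocyte RNA is a description. Intervals on counts cover counting error only. In bulk sums of a type, fewer expressing nuclei and less RNA per nucleus cannot be told apart. The 3 duplicated matrices were not analysed here, and 1 value of the other junction genes is not reported here.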

Additional observations from a re-analysis of the deposited data

Results flagged for a closer look

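The difference between female and male libraries in Ctnna3 was not the same in all nucleus types. The log2 difference between Tg Female and Tg male in fibroblast-like nuclei, minus that in another type, was -1.76 for cardiomyocyte-like, -2.72 for endothelial-like and -1.76 for pericyte-like nuclei, and each passed edgeR's test of the difference itself (adjusted p = 0.0243, 0.000391 and 3.45e-05). In fibroblast-like nuclei 2 of 2 Tg females lay below 2 of 2 Tg males. These 3 tests share the fibroblast sums and were chosen after the difference had been seen. In endothelial-like nuclei Ctnna3 stood at 0.20 times the level carried with cardiomyocyte RNA. The part of such RNA there was not tested.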

How the results depend on the processing

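Most values kept their direction and side of the threshold. Keeping called doublets moved Gja4 in pericyte-like nuclei to 102 CPM, Gja5 in endothelial-like nuclei to 74.3 CPM and Gjc1 in pericyte-like nuclei to 280.1 CPM; the cause was not tested. The count of members past the threshold in pericyte-like nuclei went from 0 to 1 with no count filter, and from 0 to 2 over the fits without 1 library. In the Duoxa1-led fibroblast cluster alone the count was 0, against 1 in the whole class. Over the fits without 1 library, Gja1 in cardiomyocyte-like nuclei by sex ran from -0.10 to 0.85, and Gja1 by Ccna2 from -0.011 to 0.023; the latter was -0.0081 with at least 1 Ccna2 UMI and -0.051 with no count filter. The interaction of Ctnna3 ran from -1.92 to -1.60, from -3.25 to -2.30 and from -2.20 to -1.37 against cardiomyocyte-, endothelial- and pericyte-like nuclei.

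Same-numbered Tg libraries correlated by 0.04 to 0.14 in their deviations, and with 2 pairs the numbers were not taken to pair animals. With the replicate block the members called were 0, 0, 1 and 1 in cardiomyocyte-, endothelial-, fibroblast- and pericyte-like nuclei, the last being Gja1 (2.21, adjusted p = 0.0200 by edgeR), and all genes called were 75, 287, 475 and 68, against 4, 22, 77 and 16 without it. With no replicate block the Ccna2 comparison called 0 members.

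Counts of all genes called depended on the setting: DESeq2 gave 110, 101, 239 and 21, no count filter 74, 374, 703 and 89, and the fits without 1 library 78 to 244, 74 to 470, 78 to 1464 and 29 to 497 in the same order of types. In the Ccna2 comparison 23 genes passed, 15 with DESeq2, 68 with no count filter, 12 with no replicate block and 22 to 38 without 1 library. Low UMI totals limit Gja1 in pericyte-like nuclei, Dsc2 outside muscle and all connexins in conduction-like nuclei.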
